A study of Mus musculus with 24 samples.

Results

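Gapmer 1 against the long noncoding RNA Dnm3os was compared with a control gapmer in the lungs of bleomycin-treated mice. The comparison takes 10 of the 24 one-colour arrays of the study, 5 with gapmer 1 and 5 with the control gapmer, taken by their group labels. It covers all 20728 genes named on the array, each by its feature with the highest mean over the 24 arrays. A gapmer is a short antisense oligonucleotide with a DNA core that directs RNase H to cleave the RNA it pairs with. Each array holds total RNA from whole lung of a C57BL/6 mouse aged 9 to 12 weeks. The labels describe transfection with gapmer 1, gapmer 3 or a control gapmer, combined with bleomycin or PBS, so that no group was without a gapmer. The labels name no dose, route, time of sampling, sex or animal. Samples carry numbers within groups and nothing shows that each came from its own mouse, so a p-value reflects sample-to-sample spread that may be technical.

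Bleomycin breaks DNA, and in the mouse lung it is followed by loss of alveolar epithelium, inflammation and scarring. During this course fibroblasts turn into contractile, matrix-producing myofibroblasts, and B and T cells can gather in aggregates that resemble lymph nodes. Dnm3os is transcribed from the strand opposite to Dnm3, a gene of the dynamin family, and is the host of microRNAs of the miR-199a and miR-214 families. MicroRNAs repress messenger RNAs that pair with their seed. The 4 mature microRNAs that lie inside Dnm3os are shown because they are the known products of the targeted RNA. Sequences and positions are those of RefSeq on GRCm38.p6, written 5′ to 3′ with the seed, bases 2 to 8, in capitals.
mmu-miR-199a-5p, chr1:162217844-162217866, + strand: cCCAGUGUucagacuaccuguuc
mmu-miR-199a-3p, chr1:162217883-162217904, + strand: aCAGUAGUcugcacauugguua
mmu-miR-214-5p, chr1:162223397-162223418, + strand: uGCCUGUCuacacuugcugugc
mmu-miR-214-3p, chr1:162223438-162223459, + strand: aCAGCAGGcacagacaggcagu
All 4 lie on the + strand of chromosome 1 and their 4 seeds differ. The microRNAs themselves were not measured on these arrays. Of 14 measured messenger RNAs described as their targets, 1 was higher with gapmer 1 (Fgf7, a growth factor for epithelium, by 0.35 on the log2 scale) and 1 was lower (Hif1a, a transcription factor of the hypoxia response, by 0.32), with a list median of -0.08. Each direction thus held 7.1% of the list, near the 5.47% higher and 5.08% lower among all genes. Each call was lost without any 1 of 7 of the 10 arrays, and 5 of these were the same for both calls. With only the 10 arrays compared in the fit, 0 of the 14 were called.

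The deposited values are log2 intensities, so a difference of 1 is a 2-fold change in signal. Values ran from 5.03 to 18.25, and a gene was called at a limma adjusted p under 0.05 over all 20728 genes. A group mean under 6.11, the 25th percentile of gene means, was taken as dim, and a fall to such a level is a lower bound of the true fall. Lung markers were present on all 10 arrays, at 10.08 or more for Sftpc, Sftpb, Ager, Scgb1a1, Pecam1 and Cdh5. RNA integrity numbers averaged 9.56 ± 0.44 with gapmer 1 and 9.68 ± 0.39 with the control gapmer (SD, n = 5 each). Pairwise correlations of arrays, across genes, were 0.974 to 0.995 within the gapmer 1 group and 0.978 to 0.997 within the control group. Several libraries stood apart. Gapmer 1 replicate 4 lay near the control arrays for matrix, chemokine and cell cycle genes. Control replicate 3 carried thymus genes. Its Rag1, an enzyme of antigen receptor rearrangement, measured 10.22, against 5.45 to 6.04 on the 5 gapmer 1 arrays and 5.56 to 5.65 on the other 4 control arrays (Rag1 was singled out after its values were seen). In 30 genes all 5 bleomycin control arrays exceeded all 19 other arrays of the study by more than 0.5. The same count was 0 for the gapmer 1 group in bleomycin mice and at most 1 for the other groups.

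Dnm3os, the targeted RNA, was compared first. Its brightest feature measured 6.08, 5.99, 6.12, 6.48 and 6.24 on the gapmer 1 arrays, against 6.84, 7.03, 6.64, 7.05 and 6.93 on the control arrays. The highest gapmer 1 value, that of replicate 4, lay below the lowest control value, so the groups did not overlap. The difference was -0.72 (SE 0.11, limma adjusted p = 0.000186), and a two-sided exact permutation test of 5 against 5 arrays gave p = 0.00794, the smallest it can give (0.0119 adjusted over the 3 features of the gene). A second feature differed by -0.28 (exact permutation p = 0.00794) and was not called in a fit over all features (limma adjusted p = 0.065). It was dim with gapmer 1 (mean 6.1, against 6.38 with the control gapmer), so this difference is a lower bound of its fall. The third feature, dim in both groups, differed by -0.01 (exact permutation p = 0.897). The gapmer 1 mean of the brightest feature, 6.18, lay just above the dim level, so its fall may also be understated. With the 3 features of Dnm3os averaged the difference was -0.34 and was still called. Dnm3, a gene on the opposite strand, differed by 0.52 and was not called (limma adjusted p = 0.0833). It passed without gapmer 1 replicate 4 (0.62, limma adjusted p = 0.0353) and with array weights (0.69, limma adjusted p = 0.0144). Array weights raised the calls over all genes to 2390 higher and 1841 lower. Gapmer 1 replicate 2 stood apart from its group for Dnm3, high at 8.46.

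Across all genes, 1133 were higher with gapmer 1 (5.47%) and 1053 were lower (5.08%), out of 20728 tested. These shares are the background for every list below. The falls were larger than the rises: 82 called genes fell more than 2-fold and 6 rose more than 2-fold. The median difference over all genes was 0.02, and the 95% interval of a gene reached 0.18 to either side of its difference in the median. The 5 gapmer 1 arrays all lay above the 5 control arrays for 594 genes (2.87%), and all below them for 707 genes (3.41%). Without control replicate 2, 545 genes were higher and 664 lower. Without control replicate 5 the counts were 1744 and 1187. With only the 10 arrays compared in the fit, 615 genes were higher and 663 lower. List counts that this moved by over 1.5 times are given with each list described. The cornified envelope gene Sprr2f, the protease inhibitor gene Spink8, the matrix protease gene Mmp7, the homing receptor ligand gene Glycam1 and the keratin gene Krt17 lay at the far left of the plot of all genes, where no rise other than that of the muscle gene Myh2 was as large.

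**Figure D1:**
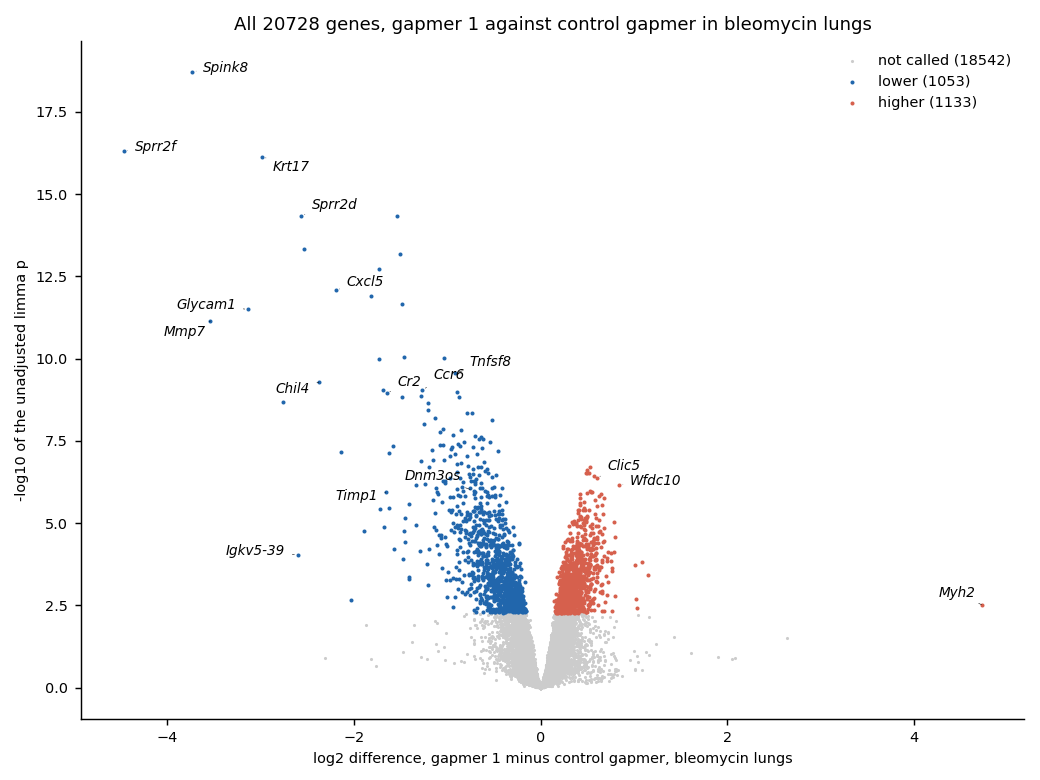
Difference between gapmer 1 and control gapmer in bleomycin lungs (x axis, log2) against the negative log10 of the unadjusted limma p (y axis) for each of 20728 genes. Of the 1053 called falls 82 exceed 2-fold, and of the 1133 called rises 6 do.

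Among the genes that fell most were Krt17, Sprr2f and Mmp7, which epithelium can express. Krt17, a keratin of basal and stressed epithelial cells, measured 6.57, 6.39, 6.61, 7.02 and 6.84 with gapmer 1, against 9.69, 9.97, 9.70, 9.68 and 9.30 with the control gapmer. Every gapmer 1 array lay more than 2 log2 units below every control array, with a difference of -2.98 or 7.9-fold (SE 0.12, limma adjusted p = 4.98e-13). Sprr2f, a small proline-rich protein of the cornified envelope, measured 5.67, 5.56, 5.53, 5.44 and 5.55 with gapmer 1, against 10.31, 10.70, 9.72, 10.02 and 9.31 with the control gapmer. All gapmer 1 values lay at the floor of the array, so Sprr2f was at least 22.1-fold lower (log2 difference -4.47, SE 0.18, limma adjusted p = 4.96e-13). Mmp7, or matrilysin, a matrix protease made by injured epithelium, measured 5.89, 5.60, 5.56, 5.70 and 5.63 with gapmer 1, against 9.73, 9.94, 9.11, 9.62 and 7.66 with the control gapmer. It was at least 11.6-fold lower (log2 difference -3.54, SE 0.26, limma adjusted p = 1.15e-08), and its lowest control array, replicate 5, still lay above all gapmer 1 arrays. In PBS lungs with the control gapmer Sprr2f averaged 5.64 and Mmp7 5.69, within the range of their gapmer 1 arrays in bleomycin lungs, while Krt17 averaged 5.92, below all 5 gapmer 1 arrays. The promoters of Sprr2f and Mmp7 are shown because these are among the largest falls and their genes lie on different chromosomes. Those of Spink8, Glycam1 and Krt17, which also fell far, are not shown. The promoters shown therefore do not stand for the largest falls as a set. Each line gives the 250 bases before the gene's start (RefSeq, GRCm38.p6), with matches to the AP-1 motif TGANTCA in capitals.
Sprr2f promoter, chr3:92364937-92365186, + strand: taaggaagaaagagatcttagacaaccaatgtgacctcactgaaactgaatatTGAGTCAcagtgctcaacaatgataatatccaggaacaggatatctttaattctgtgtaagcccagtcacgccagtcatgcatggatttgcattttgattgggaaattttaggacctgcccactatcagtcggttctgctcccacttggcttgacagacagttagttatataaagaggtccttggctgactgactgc
Mmp7 promoter, chr9:7691840-7692089, + strand: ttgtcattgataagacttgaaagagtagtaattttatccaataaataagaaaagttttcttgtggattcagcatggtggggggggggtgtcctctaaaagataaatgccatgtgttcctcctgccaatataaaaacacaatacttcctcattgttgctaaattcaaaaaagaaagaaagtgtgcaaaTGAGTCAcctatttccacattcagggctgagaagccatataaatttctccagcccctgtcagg
The match begins 197 bases before the start of Sprr2f and 63 bases before that of Mmp7. In windows of 300 bases, 250 before and 50 after the start, and on both strands, the motif occurred in 2425 of 27025 genes with a promoter in the table (9%). It occurred in 16 of 27 matched genes of the squamous and cornified envelope list, of which 31 were measured, and in 6 of 17 matched genes of the matrix protease list, of which 24 were measured. Among members called lower the counts were 4 of 7 and 6 of 10. A match is a run of letters, not evidence of binding.

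Of the 31 measured squamous and cornified envelope genes, 9 were lower and 0 were higher with gapmer 1, and the list median was 0.03. Fitted on the 10 arrays alone, 8 were higher and 9 lower. All gapmer 1 arrays lay above all control arrays for 5 members and below them for 9, against 2.87% and 3.41% of all genes. With dim genes left out the median of the remaining 23 members was 0.37, so the list went both ways. Most members were not called, and those that fell lay far from the rest. Sprr2d and Sprr2e, further small proline-rich proteins, were at least 5.92-fold and at least 1.63-fold lower, and probes of this near-identical family may detect each other's RNA. Krt6a, a keratin of hyperproliferative epithelium, was at least 2.42-fold lower (log2 difference -1.28, limma adjusted p = 1.22e-06). Stfa1, an intracellular cysteine protease inhibitor with close paralogs, differed by -1.63. Lor, the major cornified envelope protein, was not called (0.73). In the list of 14 basal keratins and markers, 4 were lower, among them the neurotrophin receptor gene Ngfr (-0.89) and the hemidesmosome integrin gene Itgb4 (-0.36), and 0 were higher. Krt5, Krt14 and Krt15, the usual basal cell keratins, had differences of -1.22, -1.86 and -1.38 and were not called. Among genes singled out after their values were seen, Spink8 fell by 3.73 to the floor (at least 13.3-fold, limma adjusted p = 3.89e-15). Gsdmc3, a gasdermin with near-identical paralogs, fell by 2.76, and Alox12e, an epidermal lipoxygenase, fell by 2.54. The tight junction gene Cldn4, raised in alveolar cells in transition after injury, fell by 0.93 (SE 0.16, limma adjusted p = 0.000836), while its relative Cldn3 rose by 0.35 (SE 0.06, limma adjusted p = 0.000836). Both are on the list of 17 measured genes of damage-associated epithelium, of which 2 were lower (5 without gapmer 1 replicate 4), 1 was higher and 14 were not called, with a median of -0.13. Epithelial and other cells were measured together in these bulk samples, so fewer cells of a type and less RNA per cell cannot be told apart.

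Genes of lymphoid aggregates and their vessels formed the next group. Glycam1, a mucin-like ligand of L-selectin on high endothelial venules, measured 5.91, 5.85, 6.17, 6.08 and 6.32 with gapmer 1, against 9.46, 9.79, 8.98, 9.34 and 8.40 with the control gapmer. It was at least 8.75-fold lower (log2 difference -3.13, SE 0.22, limma adjusted p = 5.48e-09), and the gapmer 1 levels lay within 0.5 of the PBS control mean of 5.89. Madcam1, the mucosal addressin that lymphocytes bind on venules, measured 6.43, 6.13, 6.35, 6.78 and 6.71 with gapmer 1, against 8.36, 8.57, 8.02, 8.31 and 7.03 with the control gapmer. Its groups were apart, though control replicate 5 came near, and the difference was -1.58 (SE 0.19, limma adjusted p = 1.92e-05). Of 15 measured genes of the lymphoid aggregate list 9 were lower and 1 was higher, with a list median of -0.82, and in 9 all gapmer 1 arrays lay below all control arrays. The count of lower genes was 9 or 10 when any 1 array was left out, and that of higher genes was 0 without gapmer 1 replicate 2 or 3 or control replicate 2 or 3.

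Lymphotoxin, a cytokine that B and T cells use to organise lymphoid stroma, fell in both of its chains. Ltb, the membrane chain, measured 12.55, 12.54, 12.55, 12.70 and 12.57 with gapmer 1, against 13.44, 13.59, 13.37, 13.49 and 13.14 with the control gapmer. The difference of -0.83 (SE 0.13, limma adjusted p = 0.000338) separated all arrays, with replicate 4 the highest of the gapmer 1 group. Lta, the soluble chain, fell by 0.97, and Ltbr, the receptor on stromal cells, was not called (-0.02). Ccl19, a chemokine that draws T cells and dendritic cells, fell by 1.41 (SE 0.34, limma adjusted p = 0.0104) with overlap, since control replicate 5 measured only 9.31. The receptor of Ccl19, Ccr7, fell by 0.82, and Cxcr5, the receptor that brings B cells into follicles, by 0.76, both with no overlap. The venule genes Ackr1, a chemokine scavenger of postcapillary venules, and Selp, the adhesion molecule P-selectin, fell by 1.12 and 0.65. The promoter of Madcam1 is shown because NF-kB factors act downstream of lymphotoxin, with matches to their motif, GGGA followed by any 4 bases and CC on either strand, in capitals (RefSeq, GRCm38.p6, the 250 bases before the start).
Madcam1 promoter, chr10:79664309-79664558, + strand: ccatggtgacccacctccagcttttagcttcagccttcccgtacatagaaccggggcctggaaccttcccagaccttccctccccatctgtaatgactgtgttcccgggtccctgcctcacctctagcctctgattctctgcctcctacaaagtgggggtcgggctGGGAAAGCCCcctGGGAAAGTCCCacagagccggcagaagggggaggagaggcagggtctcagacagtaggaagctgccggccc
Matches begin 84, 71 and 70 bases before the start, and the last 2 overlap. This motif occurred in 6195 of the 27025 genes (22.9%), in 5 of 12 matched lymphoid aggregate genes and in 4 of the 7 matched members called lower. The AP-1 motif occurred in 2 of those 12 and in 0 of those 7.

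T cell genes fell together. Of 24 measured T cell genes 19 were lower and 0 higher, the list median was -0.76, and in 17 the groups did not overlap. Cd3d, a chain of the T cell receptor complex, measured 10.19, 9.90, 10.25, 10.26 and 10.14 with gapmer 1, against 11.05, 11.13, 11.44, 11.05 and 10.83 with the control gapmer. No gapmer 1 array reached the lowest control value, and the difference was -0.95 (SE 0.12, limma adjusted p = 2.06e-05). Il2ra, the interleukin-2 receptor alpha chain of regulatory and activated T cells, fell by 1.21 or 2.31-fold (SE 0.13, limma adjusted p = 2.69e-06). Cd6 and Cd5, surface receptors that tune T cell signalling, fell by 1.08 and 0.91, Cd3g by 0.94, the T cell and fibroblast surface gene Thy1 by 0.90 and the transcription factor gene Lef1 by 0.73. Cd4 differed by -0.29 (limma adjusted p = 0.157) and Cd2, an adhesion receptor, by -0.04, and neither was called. Control replicate 3 was the highest of the 10 arrays for Cd3d and for the thymus list, whose median shift was 0.66 on that array and between -0.27 and -0.10 on the others. Without it 17 T cell genes were lower, and leaving out any 1 array gave 17 to 19. Of 10 thymus genes 1 was called, Themis, a regulator of thymocyte selection also on the T cell list. Themis was at least 1.46-fold lower (limma adjusted p = 0.0236) and was not called without any 1 of 4 arrays. With only the 10 arrays compared 0 thymus genes were called. Dntt, an enzyme that adds bases to rearranging receptor genes, differed by -1.12 and Rag1 by -0.85, and neither was called (Dntt was singled out after its values were seen). Genes of NK and cytotoxic cells gave another picture, with 2 of 16 lower, 0 higher and a median of 0.05. Those 2 were the chemokine Ccl5 (-0.72) and Il2rb (-0.69), an interleukin-2 receptor chain. NK and cytotoxic genes called higher numbered 2 without gapmer 1 replicate 4 or control replicate 5.

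B cell genes fell as well. Of 19 measured B and plasma cell genes 15 were lower and 0 higher, with a list median of -0.64 and 11 without overlap, and 14 or 15 were lower when any 1 array was left out. Cr2, the complement receptor of mature B cells and follicular dendritic cells, measured 9.37, 10.02, 9.96, 9.43 and 10.11 with gapmer 1, against 11.49, 11.79, 11.29, 11.42 and 11.14 with the control gapmer. The groups were more than 1 log2 unit apart, at a difference of -1.65 (SE 0.16, limma adjusted p = 1.07e-06), and the gapmer 1 levels also lay below the PBS control mean of 10.24. Tnfrsf13c, the receptor for the survival factor BAFF, fell by 1.24, Cd79a, a signalling chain of the B cell receptor, by 0.89, Ms4a1, which encodes CD20, by 0.85 and Pou2af1, a coactivator in B cells, by 0.87. Ccr6, a chemokine receptor of B cells and a subset of T cells, fell by 1.27 or 2.41-fold (SE 0.12, limma adjusted p = 9.22e-07). An immunoglobulin light chain gene segment, Igkv5-39, fell by 2.60 (SE 0.54, limma adjusted p = 0.00352). Jchain and Xbp1, genes of antibody secretion, were not called (-0.20 and 0.04). Of 35 TNF superfamily ligands and receptors 13 were lower and 0 higher, with 2 higher without gapmer 1 replicate 4. Among the lower ones were Tnfsf8, the ligand of CD30 (-0.92, SE 0.08, limma adjusted p = 3.35e-07), Tnfsf18 and its receptor Tnfrsf18 (-1.02 and -0.86) and the T cell costimulator Tnfrsf4 (-0.90). Of 21 antigen presentation genes 3 were lower and 0 higher, with 5 lower without control replicate 5. H2-Oa and H2-Ob, the chains of a class II accessory molecule found mainly in B cells, fell by 0.84 and 0.81, and the classical class II gene H2-Ab1 was not called (-0.08).

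**Figure D2:**
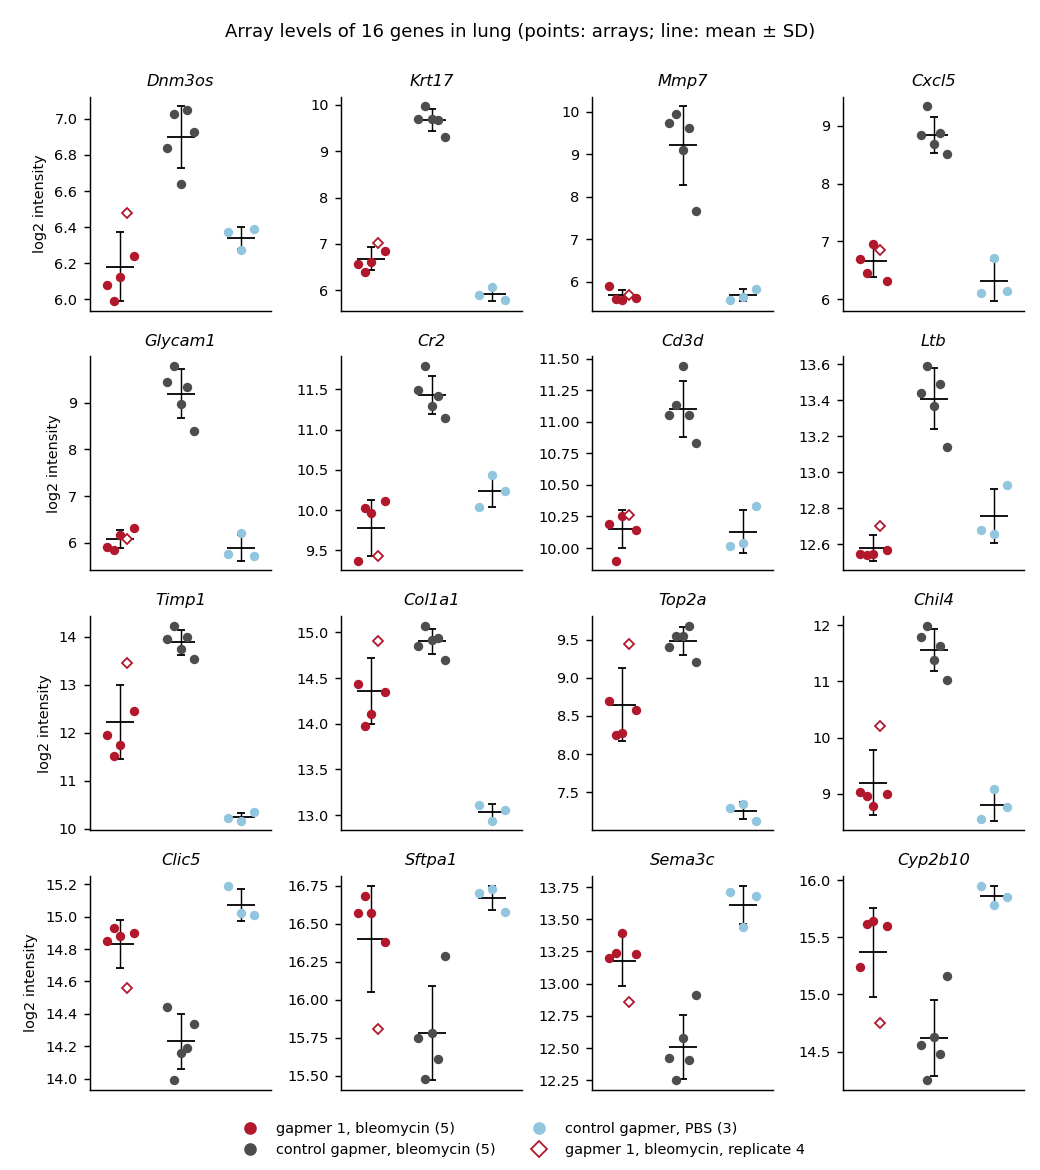
Log2 intensity (y axis of each panel) of 16 genes on each array, with mean ± SD, for gapmer 1 in bleomycin lungs (5 arrays), control gapmer in bleomycin lungs (5 arrays) and control gapmer in PBS lungs (3 arrays). Gapmer 1 replicate 4, drawn as an open diamond, lies with the other gapmer 1 arrays for Krt17, Glycam1 and Cd3d and near the control arrays for Top2a and Col1a1.

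Many chemokine genes fell. Of 36 measured chemokine genes 19 were lower and 0 higher, with a list median of -0.46, and the groups did not overlap in 11. Cxcl5, a neutrophil attractant made by epithelium, measured 6.69, 6.46, 6.96, 6.86 and 6.32 with gapmer 1, against 8.84, 9.34, 8.69, 8.87 and 8.51 with the control gapmer. The gap between the groups exceeded 1.5 log2 units, and the fall was 2.19 or 4.57-fold (SE 0.15, limma adjusted p = 1.87e-09). Ccl2, the main attractant of monocytes, measured 9.86, 8.88, 9.13, 10.82 and 9.82 with gapmer 1, against 11.22, 11.49, 11.10, 11.46 and 10.49 with the control gapmer. Its fall of 1.45 (SE 0.28, limma adjusted p = 0.00196) came with overlap, since gapmer 1 replicate 4 lay above control replicate 5. The monocyte attractant Ccl7 fell by 1.09, the eosinophil attractant Ccl24 by 1.11, Ccl17, which draws helper T cells, by 0.88 and the interferon-induced Cxcl9 by 1.21. Per-array medians of the list were -0.41, -0.67, -0.60, -0.11 and -0.37 with gapmer 1, against -0.01, 0.10, -0.04, 0.03 and -0.13 with the control gapmer, so replicate 4 moved least. The number of lower chemokines was 15 to 21 when single arrays were left out. That of higher chemokines was 2 without gapmer 1 replicate 4 and 1 without control replicate 5. Of 21 chemokine receptors 8 were lower and 2 higher, and the lower count was 4 without gapmer 1 replicate 2 or 5 or control replicate 2 or 4, and 5 without gapmer 1 replicate 1 or 3 or control replicate 1 or 3. In the fit of the 10 arrays alone 5 receptors were lower and 1 higher. Receptor rises numbered 1 without gapmer 1 replicate 1 or control replicate 2. Ackr4, a scavenger of Ccl19, was higher by 0.77.

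Some cytokine and acute phase genes fell, and most members of both lists were not called. Il6, the interleukin that drives the acute phase, measured 7.94, 7.07, 7.02, 8.41 and 7.52 with gapmer 1, against 8.86, 9.33, 8.82, 8.96 and 8.63 with the control gapmer. All gapmer 1 arrays lay below the controls, and the difference was -1.33 (SE 0.23, limma adjusted p = 0.000904). Il11, an interleukin of the same family, fell by 0.80, and their receptors Il6ra and Il11ra1 were not called (-0.08 and -0.04). Of 38 interleukins and receptors 9 were lower and 2 higher. Without control replicate 2 the lower count was 4. The higher count was 1 with only the 10 arrays compared, and without any 1 array other than gapmer 1 replicate 4 and control replicate 5. Of 21 acute phase genes 7 were lower, whichever array was left out, and 0 were higher, with a median of -0.08. Acute phase rises numbered 1 without gapmer 1 replicate 4 and 2 without control replicate 5. Saa3, an acute phase apolipoprotein made in lung, measured 11.07, 10.74, 10.18, 12.63 and 10.64 with gapmer 1, against 13.02, 13.20, 12.81, 13.16 and 12.51 with the control gapmer. Only gapmer 1 replicate 4 reached the control range, and the difference was -1.89 (SE 0.34, limma adjusted p = 0.00118). Saa1 and Serpina3n, whose paralogs may share probe signal, fell by 1.12 and 1.16, and Socs3, a feedback inhibitor of Il6 signalling, by 0.86. Lcn2, an iron-sequestering acute phase protein, was not called (0.25). The promoter of Il6 is shown because it held both motifs, in capitals (RefSeq, GRCm38.p6, the 250 bases before the start).
Il6 promoter, chr5:30012864-30013113, + strand: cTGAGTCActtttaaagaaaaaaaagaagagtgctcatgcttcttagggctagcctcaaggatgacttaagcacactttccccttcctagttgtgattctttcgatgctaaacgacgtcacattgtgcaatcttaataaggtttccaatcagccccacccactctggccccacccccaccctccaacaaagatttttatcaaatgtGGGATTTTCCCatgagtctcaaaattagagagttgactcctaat
The AP-1 match begins 249 bases before the start, and overlapping NF-kB matches begin 44 and 43 bases before it. The NF-kB motif occurred in 11 of 26 matched chemokine genes and in 7 of the 12 matched chemokines called lower. It occurred in 9 of 28 matched interleukin and receptor genes, in 5 of the 8 of these called lower, in 6 of 27 squamous genes (22.2%) and in 3 of 17 matrix protease genes (17.6%). Among members called lower it occurred in 2 of 7 squamous and 2 of 10 matrix protease genes. The AP-1 motif occurred in 7 of the 28 interleukin and receptor genes (25%) and in 6 of the 26 chemokine genes (23.1%), against 9% of all genes. Among members called lower the AP-1 counts were 4 of 8 and 3 of 12.

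Macrophage genes moved in part. Chil4, a chitinase-like protein of allergic and alternatively activated lung that has a close paralog in Chil3, measured 9.02, 8.95, 8.78, 10.21 and 8.99 with gapmer 1, against 11.79, 11.99, 11.38, 11.63 and 11.03 with the control gapmer. The groups did not overlap, and the fall was 2.37 or 5.19-fold (SE 0.22, limma adjusted p = 5.94e-07), while Chil3 was not called (0.20). Arg1, the arginase of alternatively activated macrophages, fell by 1.73 or 3.31-fold (SE 0.28, limma adjusted p = 0.000445). Of 16 genes of alternative activation 7 were lower and 1 higher, and 2 were higher without gapmer 1 replicate 4 or control replicate 5. Il4i1, an amino acid oxidase of activated myeloid cells, fell by 1.23. Of 22 genes of scar-associated and monocyte-derived macrophages 7 were lower and 1 higher. The lower count was 4 without gapmer 1 replicate 2 or 3 or control replicate 2 or 4, and the 1 rise was kept without control replicate 5, joined by another without gapmer 1 replicate 4, and lost without any 1 of the other 8 arrays. Spp1, or osteopontin, fell by 0.73 (SE 0.17, limma adjusted p = 0.00883), Mmp12, the macrophage elastase, by 1.00, and Apoe, a lipid carrier, was not called (0.05). Of 17 dendritic cell genes 6 were lower and 1 higher. Fscn1 and Cd83, genes of mature dendritic cells, fell by 0.86 and 0.58, while Cd209a, a lectin of resident dendritic cells, rose by 0.42 with no overlap. Of 19 neutrophil genes 6 were lower and 2 higher. The lower count was 2 without gapmer 1 replicate 2 or control replicate 2 or 4, and 3 without gapmer 1 replicate 1 or 5 or control replicate 1 or 3. The higher count was 1 without gapmer 1 replicate 1 or control replicate 2 and 4 without control replicate 5. The neutrophil granule gene Ltf fell by 0.82. Fitted on the 10 arrays alone, 4 alternative activation genes and 3 neutrophil genes were lower.

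Some matrix genes fell, and most collagen genes were not called. Timp1, an inhibitor of matrix metalloproteinases, measured 11.96, 11.52, 11.75, 13.45 and 12.45 with gapmer 1, against 13.95, 14.22, 13.74, 13.98 and 13.53 with the control gapmer. Replicate 4 was just below the lowest control array, and the difference was -1.66 (SE 0.25, limma adjusted p = 0.000198). Tnc, which encodes tenascin-C of provisional matrix, measured 7.44, 6.98, 6.87, 7.42 and 6.91 with gapmer 1, against 8.22, 8.30, 8.06, 8.28 and 7.95 with the control gapmer. Here replicate 4 did not stand apart, and the fall was 1.04 (SE 0.12, limma adjusted p = 8.46e-06). Col1a1, a chain of collagen I, measured 14.44, 13.97, 14.11, 14.90 and 14.35 with gapmer 1, against 14.85, 15.07, 14.92, 14.94 and 14.70 with the control gapmer. The fall was 0.54 (SE 0.13, limma adjusted p = 0.00913), with replicate 4 above 2 of the 5 control arrays. Col1a2, the other chain of collagen I, differed by -0.57 and was not called (limma adjusted p = 0.0704), and passed without gapmer 1 replicate 4 (-0.76, limma adjusted p = 0.00445). Of 18 collagen genes 5 were lower and 0 higher, with a median of -0.35, and the lower count was 10 without gapmer 1 replicate 4 and 3 with only the 10 arrays compared. Of 16 collagen modifying enzymes 3 were lower and 0 higher, with 5 lower and 2 higher without gapmer 1 replicate 4, 1 higher without control replicate 3 or 5 and 1 lower with only the 10 arrays compared. Col5a1, a nucleator of collagen fibrils, fell by 0.71, and Col18a1, a basement membrane collagen, by 0.49. Of 23 matricellular and provisional matrix genes 9 were lower and 1 higher, with 2 higher without gapmer 1 replicate 4 or control replicate 4. The hyaluronan synthase gene Has2 fell by 1.41, the fibronectin gene Fn1 by 0.57 and Thbs2 by 0.85, while its relative Thbs3 rose by 0.79. Sparc, a collagen-binding protein, was not called (0.01).

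Of 24 matrix proteases and inhibitors 11 were lower and 0 higher, with 10 to 12 when single arrays were left out. Adamts4, an aggrecanase, fell by 1.68 or 3.19-fold (SE 0.30, limma adjusted p = 0.000998), and Mmp13, a collagenase, by 0.81, while Timp2 and Timp3 were not called (0.06 and 0.01). The cross-linking enzyme genes Lox and Loxl2 fell by 0.97 and 0.54. Of 14 contractile and myofibroblast genes 4 were lower and 0 higher, and 1 was higher with only the 10 arrays compared. Acta2, or smooth muscle alpha-actin, measured 13.40, 13.32, 13.40, 13.82 and 13.07 with gapmer 1, against 14.07, 14.26, 13.79, 14.22 and 13.88 with the control gapmer. Its difference was -0.64 (SE 0.12, limma adjusted p = 0.00112), with replicate 4 above 1 control array. Tagln and Actg2, further smooth muscle genes, fell by 0.49 and 0.60. Of 21 TGF-beta genes 4 were lower and 0 higher, and 2 were lower without control replicate 2 or 4 or with only the 10 arrays compared. Inhba, the activin A subunit, fell by 1.20 and Pmepa1, a target and inhibitor of the pathway, by 0.47, while Tgfbr2, a TGF-beta receptor, was not called (-0.07). Fst, the antagonist of activin, fell by 1.62 (singled out after its values were seen). Of 26 Wnt genes 7 were lower and 2 higher, with 4 lower without control replicate 2 or gapmer 1 replicate 2 or 3. The higher count was 4 without gapmer 1 replicate 4, and 1 without gapmer 1 replicate 2 or 3 or control replicate 2 or 4. With only the 10 arrays compared 1 Wnt gene was higher. The ligand gene Wnt10a and the secreted inhibitor gene Sfrp1 fell by 0.94 and 0.95.

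Proliferation genes differed with the array left out. Of 29 cell cycle and replication genes 14 were lower and 0 higher, with a list median of -0.48, and all 29 had a negative difference. Top2a, the topoisomerase of dividing cells, measured 8.70, 8.25, 8.28, 9.44 and 8.58 with gapmer 1, against 9.40, 9.55, 9.55, 9.68 and 9.21 with the control gapmer. Replicate 4 lay inside the control range, and the difference was -0.83 (SE 0.17, limma adjusted p = 0.00317). Per-array medians of the list were -0.49, -0.85, -0.82, 0.10 and -0.39 with gapmer 1, against -0.06, 0.11, 0.07, 0.09 and -0.20 with the control gapmer. The lower count was 4 with only the 10 arrays compared in the fit and 23 with array weights. Leaving out gapmer 1 replicate 4 raised the count of lower genes to 22. Leaving out control replicate 2 or gapmer 1 replicate 2 gave 7, gapmer 1 replicate 3 gave 8, and gapmer 1 replicate 1 or control replicate 3 or 4 gave 9. The mitotic genes Ccnb2, Aurka and Cenpe fell by 0.66, 0.60 and 0.68, and Pcna, the replication clamp, was not called (-0.18). Myc, a transcription factor that drives growth, fell by 0.76 with no overlap. By contrast the median of the T cell list on replicate 4 was -0.70, and on the other gapmer 1 arrays it was -0.88 to -0.72.

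**Figure D3:**
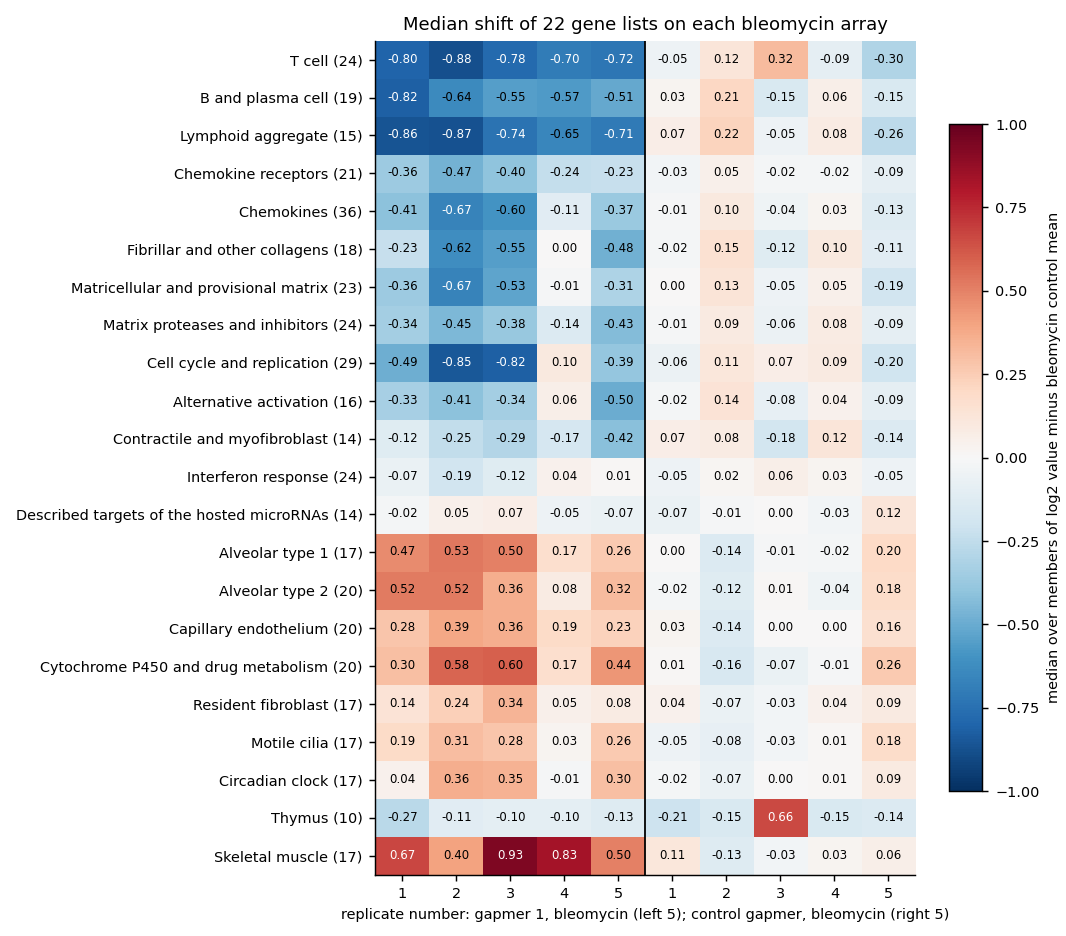
Median over the members of 22 gene lists (rows, with the number measured) of the log2 value minus the bleomycin control mean, on the 5 gapmer 1 arrays (left) and the 5 control arrays (right). T cell, B cell and lymphoid aggregate lists are low on all 5 gapmer 1 arrays, cell cycle, collagen and chemokine lists lie near 0 on gapmer 1 replicate 4, and the thymus list is high on control replicate 3.

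Many genes of the alveolar epithelium were higher with gapmer 1. Of 17 alveolar type 1 genes, which mark the thin cells of gas exchange, 11 were higher and 0 lower, with a list median of 0.41 and 8 to 12 higher when single arrays were left out. Clic5, a chloride channel protein of these cells, measured 14.85, 14.93, 14.88, 14.56 and 14.90 with gapmer 1, against 14.44, 13.99, 14.16, 14.19 and 14.34 with the control gapmer. All gapmer 1 arrays lay above the controls, and the rise was 0.60 (SE 0.08, limma adjusted p = 9.76e-05). The water channel gene Aqp5 rose by 0.43 with no overlap, and Rtkn2 and Hopx, also type 1 markers, rose by 0.71 and 0.50 with overlap. Vegfa, the endothelial growth factor that type 1 cells make, rose by 0.47 with no overlap, and Pdpn, which encodes podoplanin, was not called (-0.00). Of 20 genes of alveolar type 2 cells, which make surfactant, 13 were higher and 0 lower, with a median of 0.38. That count was 7 without control replicate 2 and 8 without gapmer 1 replicate 2 or 3. With only the 10 arrays compared, 7 type 1 genes and 6 type 2 genes were higher. Sftpa1, surfactant protein A, measured 16.57, 16.68, 16.57, 15.81 and 16.38 with gapmer 1, against 15.75, 15.48, 15.78, 15.61 and 16.29 with the control gapmer. Gapmer 1 replicate 4 lay among the controls and control replicate 5 near the gapmer 1 arrays, and the rise was 0.62 (SE 0.14, limma adjusted p = 0.00646). The lysosomal gene Lamp3 rose by 0.59 and Hc, complement component C5 that type 2 cells also make, by 0.76. Sftpc and Sftpb were not called (-0.09 and 0.14), and Sftpc was near the top of the scale at 17.87 to 18.25.

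Capillary, drug metabolism and cilia genes were among the rises. Of 20 capillary endothelium genes 8 were higher and 0 lower, with a median of 0.26, and all 20 had a positive difference. The count was 5 without gapmer 1 replicate 3 or control replicate 1, 2 or 4, or with only the 10 arrays compared. Other vessel lists differed: of 20 venous, arterial and activated endothelium genes 7 were lower and 1 higher, and of 8 lymphatic endothelium genes 2 were lower and 0 higher. The 7 were 4 without control replicate 4 or with only the 10 arrays compared. The 1 rise was lost without gapmer 1 replicate 2 or 3 or control replicate 1, 2, 3 or 4 or with only the 10 arrays, and there were 2 without gapmer 1 replicate 4 or control replicate 5. Sema3c, a guidance molecule of alveolar capillary and other cells, measured 13.20, 13.24, 13.39, 12.86 and 13.23 with gapmer 1, against 12.42, 12.25, 12.58, 12.41 and 12.91 with the control gapmer. Only control replicate 5 reached the gapmer 1 range, and the rise was 0.67 (SE 0.11, limma adjusted p = 0.000554). Tek, the angiopoietin receptor, rose by 0.39 with no overlap, and Hpgd, the enzyme that inactivates prostaglandins, by 0.53. Of 20 genes of drug metabolism 11 were higher and 1 lower, with a median of 0.39, and 6 were higher without control replicate 2. Cyp2b10, a cytochrome P450 of lung and liver, measured 15.24, 15.62, 15.64, 14.75 and 15.60 with gapmer 1, against 14.56, 14.25, 14.63, 14.48 and 15.16 with the control gapmer. Replicate 4 and control replicate 5 again made the groups overlap, at a rise of 0.75 (SE 0.16, limma adjusted p = 0.00471). Gstt1, a glutathione transferase, rose by 0.50, Fmo1, a flavin monooxygenase, by 0.51 and the club cell gene Cyp2f2 by 0.28, while Cyp1b1, a P450 of stromal cells, fell by 0.58. Of 17 motile cilia genes 4 were higher and 0 lower, with 8 higher without control replicate 5. Hydin, a protein of the axoneme, rose by 0.36 with no overlap. The club cell secretory gene Scgb1a1 was not called (-0.02), but it was near the top of the scale at 17.95 to 18.05, where a change may not show.

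In smaller groups the counts turned on single arrays. Of 17 resident fibroblast genes 4 were higher, 8 without gapmer 1 replicate 4, 2 without gapmer 1 replicate 2 or 3 or control replicate 4, and 1 without control replicate 2. Fgf10, a growth factor that fibroblasts provide to epithelium, rose by 0.26 with no overlap. Fgf1, of the same family, rose by 0.60. Of 17 alveolar macrophage genes 4 were higher. That count was 0 without gapmer 1 replicate 2 or 3 or control replicate 2, 3 or 4, 1 without control replicate 1 and 2 without gapmer 1 replicate 1 or 5. Of 11 mesothelium genes 5 were higher, with 0 without control replicate 2 or 3, 1 without gapmer 1 replicate 3 or control replicate 4 and 2 without gapmer 1 replicate 2 or 5. Of 17 clock genes 4 were higher and 2 lower, with 7 higher without gapmer 1 replicate 4 and 2 higher without gapmer 1 replicate 2 or 3 or control replicate 1, 2, 3 or 4. The 2 lower clock genes were 0 without gapmer 1 replicate 2 or 3 or control replicate 2, and 1 without gapmer 1 replicate 5 or control replicate 1, 3 or 4. Dbp and Per2, which cycle with the time of day, rose by 0.51 and 0.41, and Per1 was not called (-0.11). The labels give no hour of sampling. With only the 10 arrays compared, the higher counts were 1 for resident fibroblasts, 1 for alveolar macrophages, 2 for mesothelium and 2 for the clock, with 1 clock gene lower. The rises picked by size with no overlap included Wfdc10, a protease inhibitor gene (0.84), and Slc9a3r2, a scaffold protein gene (0.68).

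**Figure D4:**
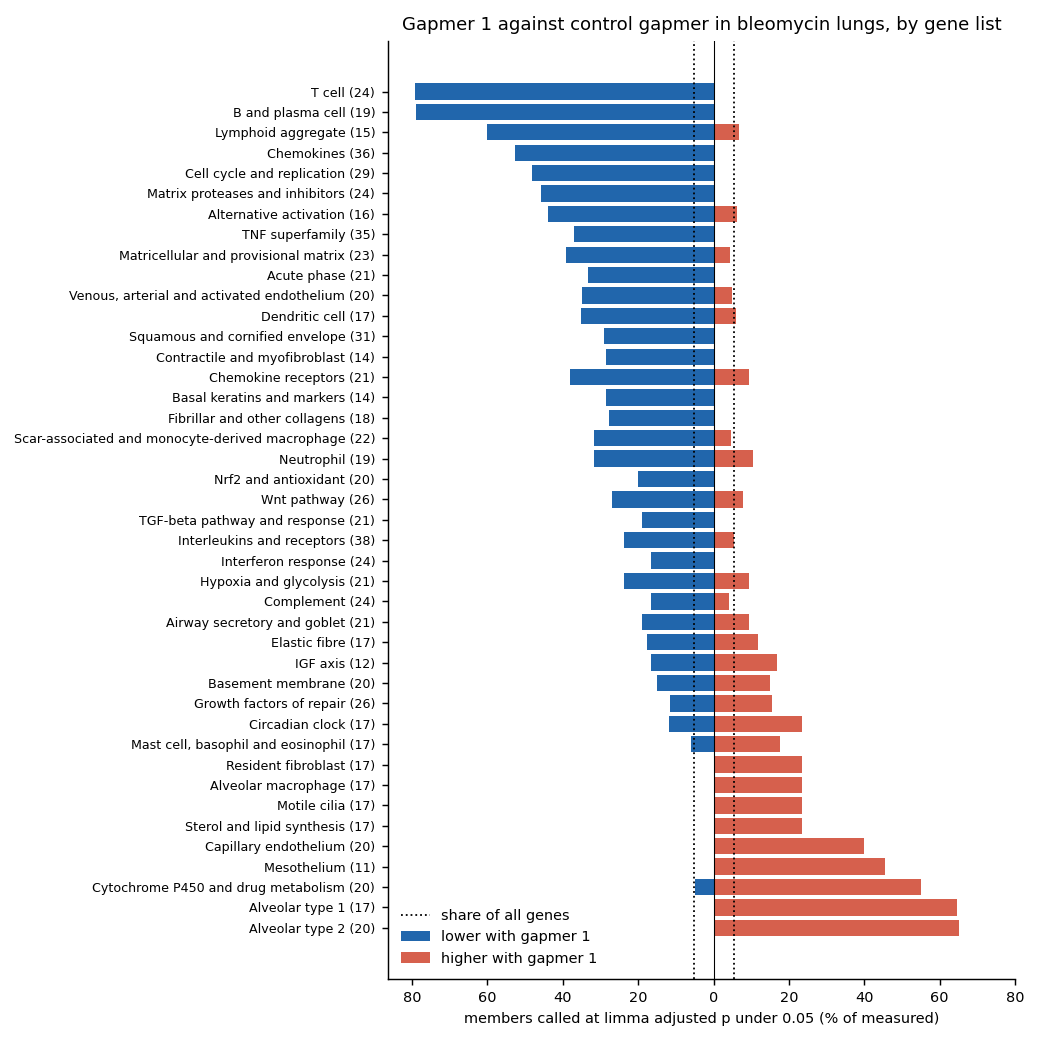
Share of measured members called lower (left) or higher (right) with gapmer 1 in bleomycin lungs, for each gene list with 4 or more calls. Dotted lines mark the share of all genes, 5.08% lower and 5.47% higher. T cell, B cell, lymphoid aggregate and chemokine lists extend furthest to the left, and the alveolar type 1, alveolar type 2 and drug metabolism lists furthest to the right.

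In lists of interferon, stress and complement genes most members were not called. The shares lower were 16.7% of interferon and of complement genes, 20% of Nrf2 genes, 13.6% of p53 targets, 15% of immediate early genes and 5% of unfolded protein response genes, against 5.08% of all genes. Of 24 interferon response genes 4 were lower and 0 higher, with a median of 0.00, and the count was 7 without gapmer 1 replicate 4 and 2 without gapmer 1 replicate 1, 2 or 3 or control replicate 2 or 3. Zbp1, a sensor of foreign nucleic acid, fell by 0.55, and Isg15, a ubiquitin-like interferon product, was not called (-0.24). Of 22 p53 targets, which respond to DNA damage, 3 were lower (1 without gapmer 1 replicate 1 or control replicate 2) and 0 higher, and Mdm2, the p53 ubiquitin ligase, was not called (-0.08). Of 20 unfolded protein response genes 1 was lower and 1 higher, and Atf4, a transcription factor of that response, was not called (-0.10). The lower call was lost without control replicate 2, and the higher count was 2 without gapmer 1 replicate 4 or control replicate 5 and 0 without gapmer 1 replicate 1, 2 or 3 or control replicate 1, 2, 3 or 4. Of 20 Nrf2 and antioxidant genes 4 were lower (2 without gapmer 1 replicate 2 or 3 or control replicate 2) and 0 higher, and the paralogous metallothionein genes Mt1 and Mt2 fell by 0.57 and 1.11. Nrf2 rises numbered 2 without gapmer 1 replicate 4 or control replicate 5 and 1 without gapmer 1 replicate 1. Of 24 complement genes 4 were lower and 1 higher, and C3, the central component, was not called (0.05). The lower count was 0 without gapmer 1 replicate 2 or 3 or control replicate 2 or 4 and 1 without gapmer 1 replicate 1 or control replicate 1. The higher count was 3 without gapmer 1 replicate 4 and 2 without gapmer 1 replicate 5 or control replicate 5. Of 20 immediate early genes 3 were lower and 0 higher, and Jun was not called (0.01). Immediate early genes called higher numbered 1 without gapmer 1 replicate 4 or 5 or control replicate 5. With only the 10 arrays compared, the lower counts were 1 for p53 targets, 2 for Nrf2 genes and 1 for complement genes, with 2 complement genes higher, and 0 unfolded protein response genes were called.

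Markers of tissues next to the lung also differed between the groups. Myh2, a myosin of fast skeletal muscle, measured 10.79, 9.17, 10.73, 12.47 and 11.06 with gapmer 1, against 6.08, 6.15, 5.91, 6.26 and 6.18 with the control gapmer. The bleomycin control arrays were the low ones, since PBS lungs with the control gapmer averaged 12.91. Gapmer 1 minus control was 4.73 (limma adjusted p = 0.0339), which was not called without any 1 of 8 of the 10 arrays. Of 17 skeletal muscle genes Myh2 was the 1 called, but with only the 10 arrays compared in the fit 11 were called higher, and in 10 (against 2.87% of all genes) all gapmer 1 arrays lay above all control arrays. The list median was 0.70, and the per-array medians were 0.40 to 0.93 with gapmer 1 and -0.13 to 0.11 with the control gapmer. Of 11 adipose genes and 13 cardiac muscle genes 0 were called, with medians of 0.47 and 0.30, and 2 of each were higher with only the 10 arrays compared. The defining markers of these tissues were not absent, and their part in the other differences was not tested.

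In PBS lungs gapmer 1 and the control gapmer had 3 arrays each, and the change in the difference was tested directly. Without bleomycin 92 genes were higher and 138 lower with gapmer 1 (1.11% in either direction). The difference in bleomycin lungs minus that in PBS lungs was called for 1597 genes (7.7%), positive for 1030 (4.97%) and negative for 567 (2.74%). The T cell median was -0.76 in bleomycin and 0.01 in PBS lungs, and the B cell median was -0.64 and -0.14. For 14 of the 24 T cell genes the change in the difference was itself called, and all 14 were negative. In the B cell list 5 of 19 were called, in the chemokine list 12 of 36 and in the lymphoid aggregate list 6 of 15, all negative, and 1 further lymphoid aggregate gene was positive. The squamous list had a median of 0.03 in bleomycin lungs and 1.06 in PBS lungs, and 10 of its 31 genes were called negative. Among basal keratins Krt14 differed by -1.86 in bleomycin and 2.42 in PBS lungs, a change of -4.28 (SE 1.12, limma adjusted p = 0.0244). For Krt15 the change was -4.32 (SE 1.04, limma adjusted p = 0.0166) and for Krt5 -4.68 (SE 1.27, limma adjusted p = 0.028). Under the other settings tried the adjusted p of these 3 reached 0.0627, 0.0586 and 0.0983. Clca1, a goblet cell gene, measured 10.45, 10.78, 10.30, 14.00 and 10.34 with gapmer 1 in bleomycin lungs, against 13.38, 13.54, 13.08, 13.26 and 12.78 with the control gapmer. Its difference of -2.03 was not called without any 1 of 7 arrays, with replicate 4 above all controls, and the change from PBS lungs was -4.04 (SE 0.95, limma adjusted p = 0.0147, at most 0.0519 under the other settings). For the clock list the medians were 0.25 in bleomycin and -0.33 in PBS lungs, with 6 genes positive and 1 negative.

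**Figure D5:**
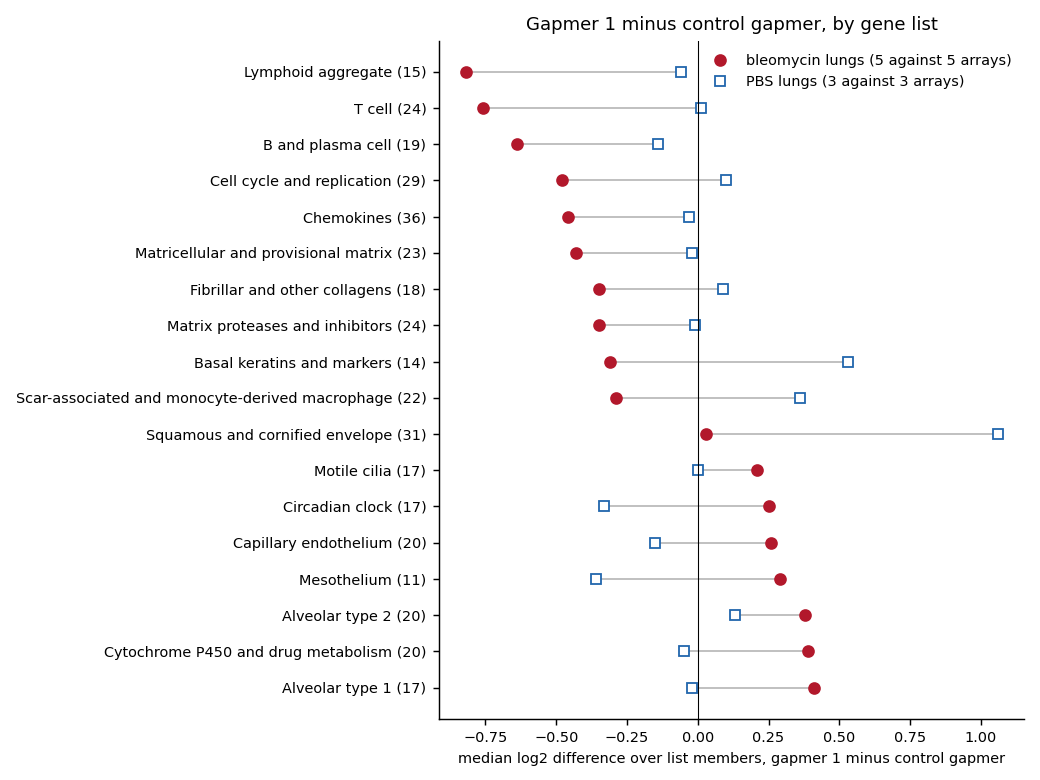
Median log2 difference between gapmer 1 and control gapmer over the members of 18 gene lists (rows, with the number measured), in bleomycin lungs (filled circles, 5 against 5 arrays) and PBS lungs (open squares, 3 against 3 arrays). Lymphoid, chemokine and matrix lists are negative in bleomycin lungs and near 0 in PBS lungs, and the squamous and basal keratin lists are positive in PBS lungs.

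Bleomycin and gapmer differences can be set side by side, although both use the bleomycin control arrays and so are not independent. Bleomycin against PBS called 33.8% of all genes. Bleomycin minus PBS under the control gapmer had a median of 0.83 for T cell genes, 0.91 for chemokines, 1.52 for cell cycle genes and 0.94 for collagens, where the gapmer 1 medians were -0.76, -0.46, -0.48 and -0.35. Medians were -0.49 for alveolar type 1 genes, -0.64 for capillary genes and -0.74 for drug metabolism genes, where the gapmer 1 medians were 0.41, 0.26 and 0.39. Gapmer 3 was then compared with gapmer 1 in bleomycin lungs, a comparison that uses no control array. By limma 0 of 20728 genes were called, 838 had an unadjusted p under 0.05, and the smallest adjusted p was 0.284. The 95% interval of a gene again reached 0.18 to either side in the median. Ccl8, a monocyte attractant, had the smallest p, with 11.56 ± 0.13 for gapmer 3 and 12.38 ± 0.39 for gapmer 1 (SD, n = 5 each, difference -0.82, limma adjusted p = 0.284). Krt17 averaged 6.53 with gapmer 3 and 6.68 with gapmer 1, and Glycam1 6.20 and 6.07. The medians of gapmer 3 minus gapmer 1 were -0.07 for T cell genes, -0.08 for chemokines, 0.01 for cell cycle genes and 0.04 for alveolar type 1 genes.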

How the data were processed

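The deposited table holds log2 intensities of 24 one-colour Agilent arrays, labelled with Cy3 per the labels. The authors had quantile-normalised them, as the values show (array medians of 6.485 to 6.495). limma is named in the submitters' processing notes, with no version. How background was corrected, and whether features were filtered, is not stated in those notes.

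Of 62976 features 31465 carried 1 gene symbol, 0 several and 31511 none. Symbols outdated in a RefSeq table (GRCm38.p6, used for names) were updated by accession (1969) or synonym (250), 18550 were current and 5 were kept as given. This left 20728 genes, each measured by the feature with the highest mean. All arrays were fitted with 6 group means, so that groups share 1 estimate of spread, with lmFit and eBayes of limma 3.58.1 (R 4.3.3), which left 18 residual degrees of freedom, and tests were two-sided. Genes with a Benjamini-Hochberg adjusted p under 0.05 were called. The fit was tested on simulated data, and precision is limited by the number of arrays.

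The comparison, its genes and the 63 gene lists (1174 measured members, 100 symbols on more than 1 list) were chosen with earlier results of these data known, so lists carry counts and medians and no test. Named genes are Dnm3os and Dnm3, the 15 largest rises and 15 largest falls among called genes with no overlap and a mean above the median of all genes, and, in each list, up to 6 called members with the largest difference and up to 2 uncalled members with the highest level. Also named are the 5 largest changes in each direction of the difference between bleomycin and PBS mice and, since gapmer 3 against gapmer 1 gave no call, the 3 genes with the smallest p there. Rag1, Dntt, Spink8, Gsdmc3, Alox12e and Fst lie outside this rule and were picked after their values were seen.

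Each fit was repeated after a second quantile normalisation, with arrays centred on their medians, without dim genes, with all features of a gene averaged, on the 10 arrays alone, with a variance trend, robust variance, array weights, RNA integrity or the replicate number as a term, with a position trend removed, and without each array. Python 3.11.15 with pandas 2.3.3 built the tables, NumPy 2.4.6 was used for arithmetic, SciPy 1.17.1 for exact permutation tests and matplotlib 3.10.9 for figures.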

Additional observations from a re-analysis of the deposited data

Results flagged for a closer look

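Single arrays stood apart from the other 4 of their group, by Dixon's test at the 95% level, in 28 of 362 groups of 5 arrays examined over the genes and lists named (7.7%). Chance alone gives about 1 in 20 for independent groups that were not picked by their values. The groups here share arrays, and some genes were picked after their values were seen, so the 2 rates cannot be compared. Gapmer 1 replicate 4 was high for Chil4 (10.21), Col18a1 (11.75), Clca1 (14.00), Fcgbp (10.00), Ltf (12.63), Ltb (12.70) and Fst (11.01), and low for the alveolar genes Clic5 (14.56) and Lamp3 (15.10). Gapmer 1 replicate 3 was high for Lef1 (10.29), Fgf10 (8.27) and Stfa1 (7.31) and low for Il2rb (8.22). Gapmer 1 replicate 1 was high for Apoe (16.81) and Cd209a (9.64), and its thymus list median was low (-0.27). Gapmer 1 replicate 2 was high for Dnm3 (8.46), and replicate 5 was low for Timp3 (14.48) and Krt5 (11.61). Control replicate 3 was high for Rag1 (10.22), Dntt (11.56) and Themis (7.32) and for the thymus list median (0.66). Control replicate 5 was high for Cldn3 (13.56) and low for Ccl19 (9.31), Jun (13.05) and Krt14 (7.35), and control replicate 2 was high for Pappa (7.84). All these are bleomycin arrays.

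The gapmer 1 difference in bleomycin lungs differed from that in PBS lungs, by the limma test of the difference itself, for 1597 genes. The largest negative changes among bright genes were in Krt5 (-4.68), Krt15 (-4.32), Krt14 (-4.28), Clca1 (-4.04) and Igkv5-39 (-3.63). The largest positive ones were in Myh2 (8.87), Retn (2.44), an adipose hormone gene, Cyp2e1 (2.37), a P450 gene, Cidec (1.93), a lipid droplet gene, and Cys1 (1.81), a cilium gene. Under the other settings tried the limma adjusted p reached 0.0692 for Cidec, 0.0684 for Myh2 and 0.066 for Retn. For Cyp2e1 it reached 0.0529, for Igkv5-39 0.0505 and for Cys1 0.0335. Retn, Cyp2e1, Krt5, Krt14 and Krt15 were not called within bleomycin lungs alone. Of 31511 array features without a gene symbol, 157 were higher and 258 lower with gapmer 1 in bleomycin lungs, and they are in no comparison of the report.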

How the results depend on the processing

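The counts of genes called with gapmer 1 in bleomycin lungs (1133 higher, 1053 lower) were 615 and 663 with only the 10 arrays compared in the fit, and 2390 and 1841 with array weights. With 1 array left out they ranged from 545 to 1744 higher and from 664 to 1433 lower. The higher count was 709 without gapmer 1 replicate 2, 671 without gapmer 1 replicate 3, 545 without control replicate 2 (664 lower), 732 without control replicate 3 and 1744 without control replicate 5. The count of changed differences between bleomycin and PBS lungs (1597) was 3251 with array weights and 802 to 2574 with 1 array left out. It was 2574 without gapmer 1 replicate 4 and 969 without control replicate 2 in bleomycin mice, and in PBS mice 882 or 859 without gapmer 1 replicate 1 or 2 and 802 or 857 without control replicate 1 or 3. Gapmer 3 against gapmer 1 gave 0 calls under every setting run. Whether same-numbered samples pair was not settled: their deviations correlated at 0.56, -0.50, -0.21, 0.52 and -0.26. Replicates 1 and 4 correlated best with their own number, and replicates 2, 3 and 5 did not. Samples were treated as unpaired. With the replicate number as a block 1336 genes were higher and 1209 lower, and it ended no call of a named gene. A position trend, seen as a correlation of 0.182 between features 164 apart, was removed in a setting chosen after seeing the data, which gave 1285 higher and 1218 lower. Dnm3os kept its direction and call under every setting run, at -0.34 with its features averaged against -0.72. None of the 256 other named genes that were tracked reversed, and genes not tracked were not checked for this. Among 256 tracked genes 89 lost their call with only 10 arrays and at most 79 with 1 array left out. The number of arrays and signals near the floor, under 6.11, limit what could be resolved, and time of sampling, batch and animals are unknown here.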

Other observations

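Several families moved in opposite directions with gapmer 1 in bleomycin lungs. Among basement membrane genes the laminin chain gene Lama1 fell by 1.00, and Lama3, a laminin chain of epithelium, rose by 0.51. Col7a1, the anchoring fibril collagen, fell by 0.57. Of 20 basement membrane genes 3 were lower and 3 higher. The higher count was 1 without gapmer 1 replicate 2 or control replicate 1 or 2, or with only the 10 arrays compared. Among elastic fibre genes Fbln2, a fibulin of injured tissue, fell by 0.74, and Fbln1 rose by 0.44. Of 17 elastic fibre genes 3 were lower and 2 higher, with 4 higher without gapmer 1 replicate 4 and 1 higher without gapmer 1 replicate 2 or 3 or control replicate 2. Fitted on the 10 arrays alone 1 was lower and 1 higher. In the insulin-like growth factor axis the binding protein gene Igfbp4 and Pappa, the protease that cleaves its product, fell by 0.57 and 0.47, while Igfbp6 rose by 0.66. Of 12 genes of that axis 2 were lower and 2 higher. The higher count was 1 without any 1 array other than gapmer 1 replicates 1 and 4 and control replicate 5. With only the 10 arrays compared it was 0.

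Airway secretory, goblet and hypoxia genes moved in both directions, and most were not called. Fcgbp and Agr2, which airway mucous cells express, fell by 1.09 and 0.67, both with overlap through gapmer 1 replicate 4, and without that array 7 of 21 airway secretory and goblet genes were lower, against 4 with it. The 2 higher ones were Muc16, a membrane mucin, and Cyp2f2, a club cell enzyme, and 1 was higher without gapmer 1 replicate 2, 3 or 5 or control replicate 2, 3 or 4. Of these genes 2 were lower and 0 higher with only the 10 arrays compared. Of 21 hypoxia and glycolysis genes 5 were lower and 2 higher, the rises being Vegfa and Pfkfb4, a regulator of glycolysis. Adm, a vasodilator peptide gene, and Slc2a1, a glucose transporter gene, fell by 0.69 and 0.43. The lower count was 2 without gapmer 1 replicate 1 or 2 or control replicate 1 or 2, and 3 without gapmer 1 replicate 3 or 5 or control replicate 4 or with only the 10 arrays compared. The higher count was 1 without any 1 array other than gapmer 1 replicate 4 and control replicate 5, and with only the 10 arrays compared. Chl1, a cell adhesion gene of the L1 family, fell by 1.40, and Serpina1a, an antitrypsin gene with near-identical paralogs, by 1.48.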
